A study of Mus musculus with 27 samples.

Results

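4T1 is a mouse mammary carcinoma line, widely used because it spreads from the mammary gland to distant organs. The series sequenced polyadenylated RNA from 27 libraries of these cells, in an arm of CRISPR-Cas9 knockout clones (Drp1, Fis1 or Mff) with their parental cells, and an arm given leflunomide or its vehicle. Described here are the 6 libraries of wild-type 4T1 cells that received no drug: 3 libraries of parental cells with no treatment named, from the knockout arm, and 3 libraries of cells kept for 3 days in DMSO, the vehicle of leflunomide, from the drug arm. They were chosen by genotype and treatment alone, over all 55401 genes of the table. Both groups carry no edit, and both serve as controls, the parental cells for the clones and the DMSO cells for leflunomide. No label states the dose of DMSO, the culture density or whether the arms were grown or prepared together, so vehicle, days in culture, arm and preparation cannot be told apart in any difference between these groups. The labels do not say that the 3 libraries of a group are separate cultures. All p-values here therefore rest on a spread between libraries that may be technical.

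Carcinoma cells in culture make much of their own surroundings: they secrete fibronectin and laminins, bind them through integrins, and couple those integrins to the actin cytoskeleton. They also adjust amino acid synthesis through the transcription factor ATF4, which raises enzymes such as asparagine synthetase when amino acids run short or mitochondria are stressed. A control group sets the level of such genes against which a treated or edited group is read.

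The 6 libraries held 18492020 to 24753800 counts. Levels below are CPM (counts scaled to a common library total, with TMM factors). DMSO replicate 3 stood apart in its ribosomal RNA: the annotated ribosomal RNA gene CT010467.1 took 23.2% of its counts. This gene took 3.50% and 3.37% in DMSO replicates 1 and 2, and 1.81% to 2.30% in the parental libraries. RNAs without a poly(A) tail were high in DMSO replicate 3 as well. Replication-dependent histone mRNAs summed to 538.9 CPM in that library. They summed to 136.3 and 132.4 CPM in DMSO replicates 1 and 2 and to 96.0 to 113.3 CPM in parental libraries. The mitochondrial ribosomal RNA mt-Rnr2 stood at 17375 CPM in DMSO replicate 3, 3636 and 3544 CPM in DMSO replicates 1 and 2, and 2190 to 2486 CPM in parental libraries. In each of these measures DMSO replicates 1 and 2 thus also lay above every parental library. Results that rest on this library are given with and without it.

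The cells carried the epithelial markers of a carcinoma line. Epcam, an epithelial surface protein, was at 175 ± 7.37 CPM in parental and 149 ± 4.83 CPM in DMSO libraries (SD, n = 3 each, as for the other levels here). Cdh1, which encodes E-cadherin, was at 361 ± 33.7 and 347 ± 22.8 CPM, and the simple-epithelial keratins Krt7 (778 ± 27.3 and 708 ± 32.0 CPM) and Krt18 (695 ± 20.2 and 593 ± 13.1 CPM) were abundant. The splicing regulator Esrp1 and the transcription factor Grhl2, both of the epithelial programme, were present in all 6 libraries. Of the basal markers, Krt14 was at 60.7 CPM in parental and 34.8 CPM in DMSO cells, while Krt5 and Trp63 gave 2 counts each over the 6 libraries. Of the mesenchymal markers, Vim stood at 238 ± 4.37 and 183 ± 20.2 CPM, Zeb2 at 11.4 and 11.9 CPM, Twist1 at 7.14 and 8.20 CPM and Snai1 at 4.93 and 4.65 CPM, while Cdh2 gave 0 counts and Zeb1 gave 5. Markers of other cells were mixed. None of 14 lymphocyte markers and none of 11 adipocyte and erythroid markers reached the minimum for testing, and 7 of 16 myeloid markers gave 0 counts in all 6 libraries. The 12 fibroblast markers summed to 356.6 to 408.8 CPM in parental and 279.3 to 306.1 CPM in DMSO libraries, mostly from Fbln2, and 5 of them gave 0 counts in all 6. The 12 endothelial markers summed to 40.03 to 48.9 and 36.8 to 39.9 CPM, mostly from Eng and Flt1, and again 5 gave 0 counts.

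At the level of whole transcriptomes the 2 groups were close. At least 1 CPM was reached by 11246 genes in all 3 parental libraries, by 11243 in all 3 DMSO libraries and by 11082 in all 6. In 9 genes the DMSO mean was at least 1 CPM with 0 counts in all parental libraries. None of these 9 reached 1 CPM in both DMSO replicates 1 and 2. A single gene, the pseudogene Rpl7a-ps11, averaged over 1 CPM in parental cells with 0 counts in all DMSO libraries, and its counts came from parental replicate 2 alone (12.9 CPM). Mitochondrial mRNAs made up 2.49% to 2.77% of the counts in parental libraries and 2.10% to 2.70% in DMSO libraries. Ribosomal protein mRNAs made up 4.88% to 5.62% and 3.59% to 5.43%. The lowest DMSO value of each is that of replicate 3, where ribosomal RNA took the larger share.

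Per kilobase of exon, the most abundant polyadenylated RNAs were mitochondrial and translational. mt-Atp8 (a subunit of ATP synthase) stood at 13958 CPM per kb in parental and 15038 in DMSO cells, mt-Nd1 (a subunit of complex I) at 4687 and 4752, and Eef1a1 (the translation elongation factor) at 4580 and 4730. The exon length of mt-Atp8 is 204 bases. After Eef1a1 came mt-Co1 (a subunit of cytochrome c oxidase) at 4654 and 4514 CPM per kb. Lgals1, the gene of galectin-1, a secreted lectin, followed at 3362 and 3361 CPM per kb. The pseudogenes Gm10925, Gm28661 and Gm28437 ranked among the top 8. They resemble mitochondrial genes, and how reads were split between the copies is uncertain. The entry of mt-Co3, a subunit of cytochrome c oxidase, varied between libraries. It held 95.8, 97.6 and 379.2 CPM in parental and 121.4, 124.3 and 113.6 CPM in DMSO libraries. Gm28437 held 3215 to 3433 CPM in the same libraries. The part of read splitting in the mt-Co3 values was not tested.

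How far the libraries lay from each other was measured as the median absolute difference in log2 CPM over 8548 genes with a mean of at least 10 CPM. Pairs within the parental group differed by 0.056 to 0.099 and pairs within the DMSO group by 0.071 to 0.099. Pairs of a parental and a DMSO library differed by 0.084 to 0.116, with a median of 0.103, so the ranges within and between the groups overlapped. A parental library and a library of a knockout clone differed by 0.129 to 0.225, and a DMSO and a leflunomide library by 0.134 to 0.170. Every parental to DMSO pair was thus nearer than the nearest parental to clone pair. Without DMSO replicate 3, the parental to DMSO pairs kept the range of 0.084 to 0.116.

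**Figure D1:**
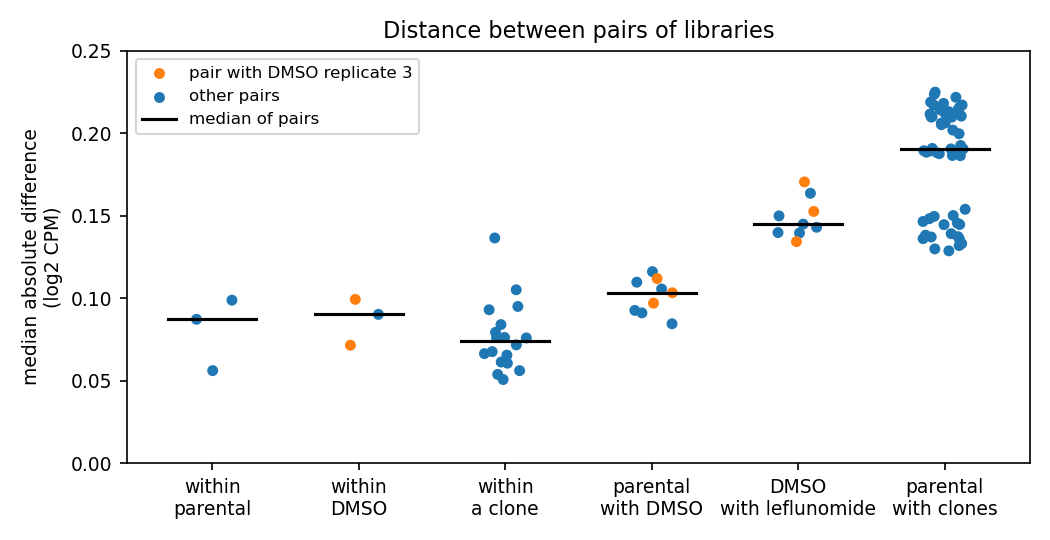
Median absolute difference in log2 CPM (vertical axis) between pairs of libraries, over 8548 genes. Each point is a pair, the bar is the median of the pairs and orange points involve DMSO replicate 3. Pairs of parental and DMSO libraries lie between 0.084 and 0.116, below all pairs of parental and clone libraries.

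By the SD of log2 CPM, the typical gene varied about as much within one group as within the other. The median SD of log2 CPM over 12627 genes was 0.092 among parental and 0.097 among DMSO libraries. Between DMSO replicates 1 and 2 it was 0.085, an SD over 2 libraries that cannot be set against those over 3. The biological coefficient of variation is edgeR's measure of spread beyond counting error. Common to all genes, it was 6.57% in parental libraries, 17.6% in DMSO libraries and 6.27% in the DMSO group without replicate 3. For the median gene it was 6.43%, 14.99% and 6.35%. By this measure the typical gene varied more in the DMSO group, unless replicate 3 was left out. The genes with the largest SD in the DMSO group included small untailed RNAs. Rn7s1 and Rn7s2, annotated copies of the signal recognition particle RNA with identical values in the table, stood at 31.9, 22.6 and 640.6 CPM in the DMSO libraries, and Rny1, a Y RNA, at 5.45, 5.47 and 130.9 CPM. The high value is that of replicate 3 in each case.

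The comparison of DMSO with parental cells asks what differs between unedited, undrugged cells of the arms. Of 12627 genes tested with edgeR's quasi-likelihood test, 87 passed a Benjamini-Hochberg adjusted p of 0.05, or 0.689% of those tested. DMSO cells had 72 lower (0.570%) and 15 higher (0.119%). Differences were small: their median absolute size was 0.50 on the log2 scale, and 17 genes (0.135%) were called and at least 2-fold apart, 16 of them lower in DMSO. All 87 had groups that did not overlap, as did 21.7% of all tested genes. The called genes had adjusted p-values between 0.013 and 0.05, close to the threshold.

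The count depended on single libraries. It dropped to 0 when parental replicate 1 was left out, to 1 for parental replicate 2 and to 52 for parental replicate 3. For DMSO replicates 1, 2 and 3 left out in turn it was 0, 16 and 89, and 51 of these 89 were among the 87. No gene was called in all 6 of these fits, although each of the 87 kept its sign in every one. DESeq2 called 315 genes, 67 of them higher, and included 85 of the 87.

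**Figure D2:**
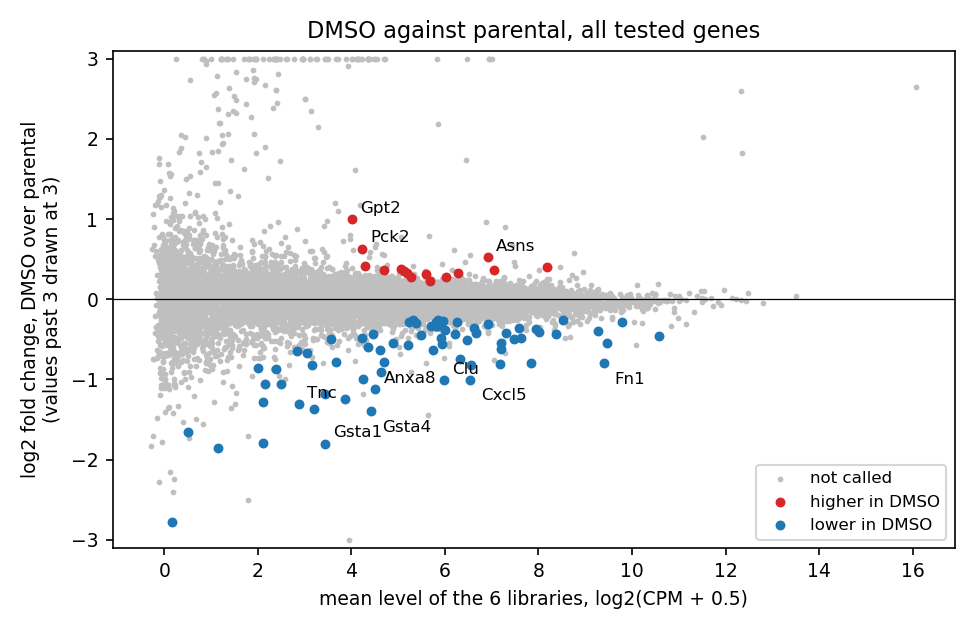
Log2 fold change of DMSO over parental cells (vertical axis) against the mean level of the 6 libraries (horizontal axis, log2 of CPM plus 0.5) for 12627 genes. Blue points are the 72 genes called lower in DMSO, red points the 15 called higher and grey points the rest. Many grey points at the top are genes that were high in DMSO replicate 3 alone, and values past 3 are drawn at 3.

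The same test, 3 libraries against 3, gave other counts where the cells were edited or drugged. Against the parental libraries, 4111 genes (31.9% of those tested) were called in the Drp1 clone gs1B8, 6806 (52.4%) in the Drp1 clone gs2_B4, 6155 (47.9%) in the Fis1 clone gs1_B11, 3789 (29.6%) in the Fis1 clone gs2_F6, 5410 (41.6%) in the Mff clone gs1_B4 and 5991 (46.3%) in the Mff clone gs1_C8. Leflunomide against DMSO called 351 genes (2.79%), and 166 (1.29%) without DMSO replicate 3. The median absolute log2 fold change over all tested genes was 0.09 for DMSO against parental, 0.16 to 0.25 for the clones and 0.14 for leflunomide. These comparisons share the parental or the DMSO libraries with each other, and a larger spread within a group lowers a count as much as a smaller difference does.

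**Figure D3:**
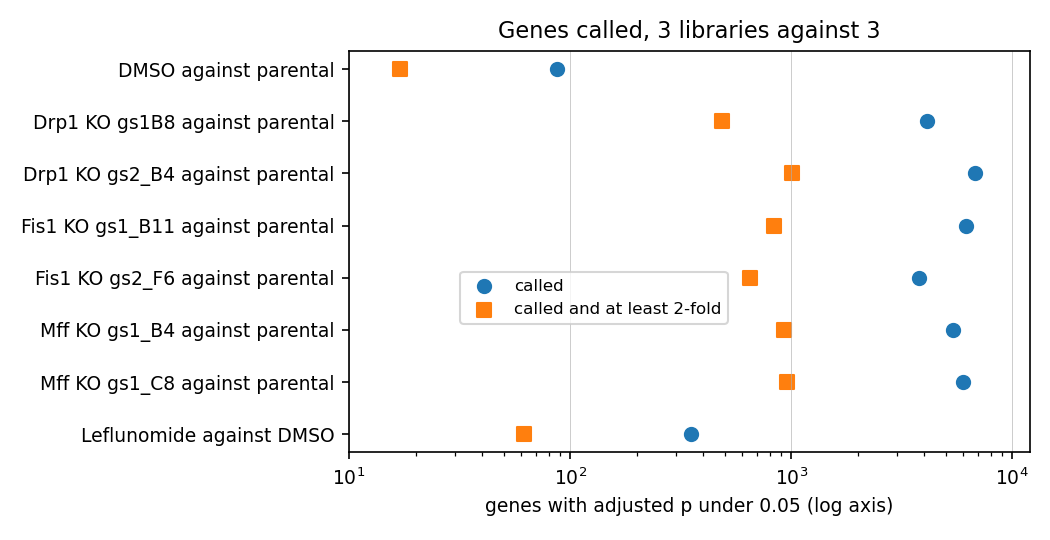
Number of genes with an adjusted p under 0.05 (horizontal log axis) in each comparison of 3 libraries with 3. Circles are all called genes and squares those also at least 2-fold apart. DMSO against parental has 87 and 17, fewer than any other comparison shown.

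Among the lists with more than 2 tested members, that of mesenchymal and extracellular matrix genes had the largest share of called genes. Of 18 tested mesenchymal and extracellular matrix genes, 6 fell in DMSO cells and 0 rose, with a median log2 fold change of -0.36, against -0.00 over all tested genes. Fn1 (chr1:71585520-71653200, GRCm38), which encodes fibronectin, stood at 854, 928 and 788 CPM in the parental and 514, 424 and 540 CPM in the DMSO libraries. The groups were apart and the log2 fold change was -0.80 (SE 0.10, edgeR adjusted p = 0.028). Lama3, a laminin chain of epithelial basement membranes, measured 273, 299 and 294 CPM in parental and 182, 139 and 178 CPM in DMSO libraries (log2 fold change -0.80, SE 0.10, edgeR adjusted p = 0.030). Lamb3, a further laminin chain, fell by 0.62 on the log2 scale (edgeR adjusted p = 0.042). For each of these genes the highest DMSO library lay below the lowest parental one.

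Tnc, the gene of the matrix glycoprotein tenascin-C, was lower still, with 9.83, 10.6 and 8.65 CPM in parental and 4.10, 3.23 and 4.45 CPM in DMSO cells (log2 fold change -1.31, SE 0.14, edgeR adjusted p = 0.018). Postn, encoding periostin, fell by 1.06 from a mean of 5.32 CPM. Both are low genes, at a small fraction of the level of Fn1. Col7a1, the collagen of the anchoring fibrils of the basement membrane, measured 63.9, 71.0 and 59.6 CPM against 43.3, 37.0 and 45.3 CPM (log2 fold change -0.63, edgeR adjusted p = 0.036). Fbln2, the gene of the matrix protein fibulin-2 and one of the fibroblast markers, measured 393, 404.5 and 352 CPM against 300.4, 274 and 275 CPM (log2 fold change -0.44, SE 0.06, edgeR adjusted p = 0.042). The other fibroblast marker tested, Pdgfra, stood at 3.90, 4.02 and 3.86 CPM against 5.59, 5.21 and 5.45 CPM and did not pass. Of the 12 fibroblast markers 10 averaged under 1 CPM over the 6 libraries, and 5 gave 0 counts in all 6. The part of fibroblast transcripts in the lower matrix genes was not tested. Members of the mesenchymal and matrix list that did not pass included the mesenchymal marker Vim (-0.38, edgeR adjusted p = 0.090). The basement membrane collagen Col4a1 (-0.30) and Sparc (0.03) did not pass either.

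Among receptors of the matrix and their couplers to actin, fewer genes passed. Of 32 integrin and focal adhesion genes, 2 fell and 0 rose, 28 lay below 0 and the median was -0.16. Itga2, the collagen-binding integrin chain, measured 219, 236 and 240 CPM in parental and 175, 146 and 175 CPM in DMSO libraries (log2 fold change -0.49, SE 0.08, edgeR adjusted p = 0.049). Fermt1, which encodes kindlin-1, an activator of integrins, fell by 0.35 (SE 0.05, edgeR adjusted p = 0.036), and Sdc1, a heparan sulfate proteoglycan of the epithelial surface, by 0.49 (SE 0.06, edgeR adjusted p = 0.030). The groups did not overlap for 15 of the 32 with DMSO lower, against 11.1% of all tested genes.

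Of 24 tested matrix proteases and inhibitors 4 fell and 0 rose, with a median of -0.23. Serpinb2, an inhibitor of plasminogen activators, measured 93.2, 124.1 and 140.1 CPM in parental and 71.3, 64.0 and 67.6 CPM in DMSO cells (log2 fold change -0.82, SE 0.14, edgeR adjusted p = 0.050). The groups were apart. The metalloproteases Adam8 and Adam12 fell by 0.59 and 0.44. Mmp9, a gelatinase, had groups that did not overlap, at 81.0, 89.9 and 73.5 CPM against 60.3, 55.4 and 46.9 CPM, and did not pass (log2 fold change -0.59, edgeR adjusted p = 0.063). Of 25 tested TGF-beta response genes 2 fell and 0 rose, with a median of -0.09, and Inhba, the activin A subunit, had a log2 fold change of -0.42 (edgeR adjusted p = 0.026).

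Every one of the 22 tested cytoskeleton genes had a fold change below 0, with a median of -0.20, and 3 passed the test. Tmsb4x, encoding thymosin beta-4, which binds monomeric actin, measured 171, 178 and 198 CPM in the parental and 96.8, 111.9 and 103.1 CPM in the DMSO libraries (log2 fold change -0.81, SE 0.07, edgeR adjusted p = 0.013). Tpm4, a tropomyosin that lies along actin filaments, fell by 0.28 and the tubulin Tubb2a by 0.33. For 15 of the 22 the DMSO libraries lay wholly below the parental ones, against 11.1% of all tested genes, among them the cytoplasmic actins Actb (-0.34) and Actg1 (-0.31), which did not pass (edgeR adjusted p = 0.20 and 0.14).

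Of 15 keratin and mammary lineage genes 3 fell, none rose and the median was -0.22. Krt8 measured 723, 708 and 670 CPM in parental and 542, 556 and 494 CPM in DMSO cells (log2 fold change -0.40, SE 0.06, edgeR adjusted p = 0.036). Krt19 fell by 0.31, and Areg, the EGF receptor ligand amphiregulin, by 0.54. Of 35 epithelial junction and identity genes none passed, 31 lay below 0 and the median was -0.11; Epcam had a log2 fold change of -0.23 (edgeR adjusted p = 0.10).

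Among called genes with a mean of at least 5 CPM in the higher group, the largest fold changes belonged to genes of glutathione S-transferases, which conjugate glutathione to electrophiles. Gsta1 (chr9:78230656-78242684) measured 19.4, 15.4 and 12.99 CPM in parental and 4.33, 5.63 and 3.73 CPM in DMSO libraries, a 3.48-fold lower mean (log2 fold change -1.80, SE 0.19, edgeR adjusted p = 0.016). Gsta4 (chr9:78182774-78209349) measured 33.0, 29.7 and 28.5 CPM against 12.4, 13.1 and 9.19 CPM (log2 fold change -1.39, SE 0.13, edgeR adjusted p = 0.014). Gm3776, a gene of the same family beside them on chromosome 9, fell by 1.79, and how reads were split between it and Gsta1 is uncertain. The lists that hold these genes had medians near that of all genes. Of 27 tested NRF2 and antioxidant genes Gsta4 alone fell and the median was -0.02, and of 15 aryl hydrocarbon receptor and xenobiotic genes Gsta1 alone fell and the median was -0.09.

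Secreted immune factors were also among the lower genes. Cxcl5, a neutrophil-attracting chemokine, measured 118, 120 and 132 CPM in parental and 52.2, 62.2 and 71.0 CPM in DMSO cells (log2 fold change -1.0, SE 0.11, edgeR adjusted p = 0.016). It was the only member called of 25 cytokine, chemokine and NF-kappaB genes, whose median was -0.25, with 22 below 0. Cxcl1, a related chemokine, stood at 50.1 ± 12.9 CPM against 26.8 ± 7.56 CPM (SD, n = 3 each) and did not pass (log2 fold change -0.91, edgeR adjusted p = 0.14). C3, the central complement component, fell by 1.37 (SE 0.20, edgeR adjusted p = 0.042), and Clu, encoding the secreted chaperone clusterin, measured 79.4, 94.1 and 75.6 CPM against 43.5, 42.1 and 38.5 CPM (log2 fold change -1.0, SE 0.09, edgeR adjusted p = 0.013). Clu was called in 4 of the 6 fits that left out a library, more than any other gene.

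The 16 myeloid markers summed to 14.8 to 17.2 CPM in parental and 10.3 to 14.3 CPM in DMSO libraries, 7 of the 16 gave 0 counts in all 6 libraries, and 3 were tested with 0 called. Csf1r, the receptor of macrophage colony-stimulating factor, was at 3.72, 4.32 and 4.43 CPM in parental and 1.72, 2.24 and 2.49 CPM in DMSO cells. Cd68, a lysosomal protein of macrophages, was at 4.18 and 3.59 CPM on average and Cd14, an endotoxin co-receptor, at 6.91 and 6.48 CPM. The other 13 of the 16 averaged under 1 CPM over the 6 libraries. Adgre1, C1qa and Lyz2 gave 0 counts, and Ptprc gave 11 counts over the 6 libraries. The part of such transcripts in the lower C3 and Cxcl5 was not tested. Fewer cells of a type and less RNA per cell cannot be told apart in such libraries.

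**Figure D4:**
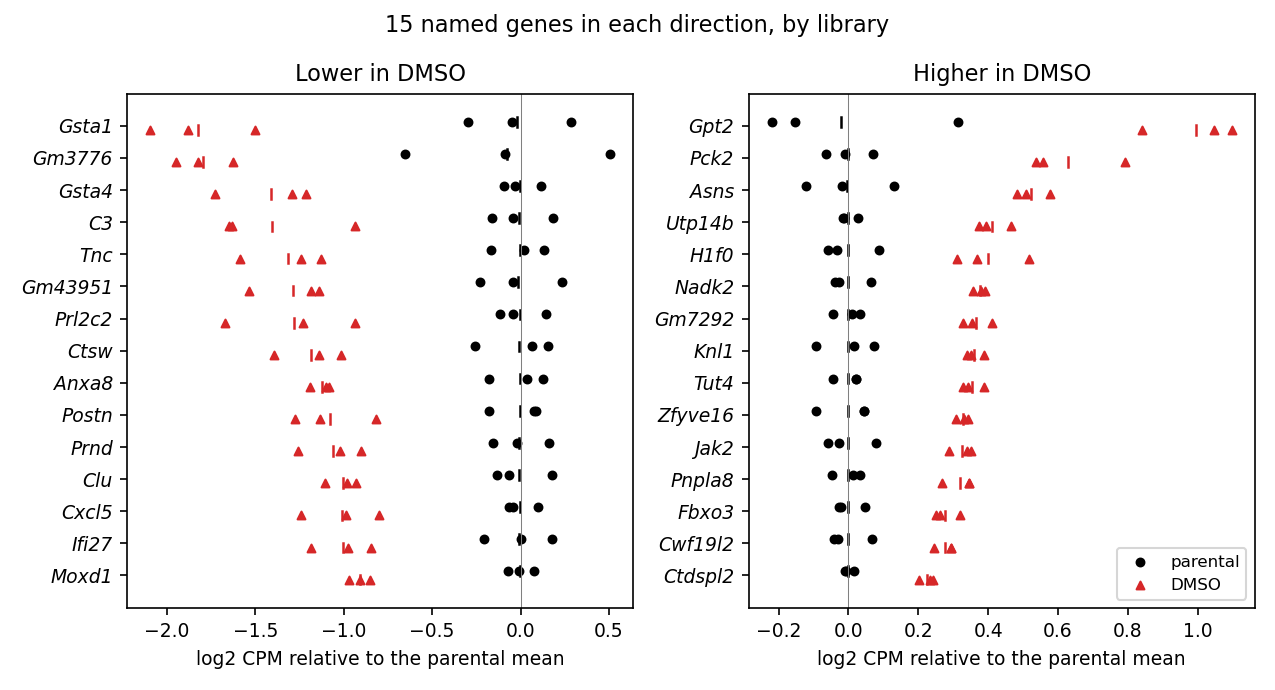
Log2 CPM of each library relative to the parental mean (horizontal axis) for the 15 genes with the largest called change in each direction, with a group mean of at least 5 CPM. Black circles are parental and red triangles DMSO libraries, 3 each, and short bars are their means. In all 30 genes the groups do not overlap, and the panels have different scales.

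The 3 largest of the 15 rises were those of Gpt2, Pck2 and Asns. Gpt2 (chr8:85492576-85527560), the mitochondrial alanine aminotransferase, which links glutamate and pyruvate to alanine and 2-oxoglutarate, measured 9.37, 8.96 and 12.9 CPM in parental and 21.5, 22.3 and 18.7 CPM in DMSO cells. It was the only higher gene to reach 2-fold (log2 fold change 1.00, SE 0.15, edgeR adjusted p = 0.044). Pck2, the mitochondrial phosphoenolpyruvate carboxykinase, measured 13.6, 14.1 and 14.9 CPM against 20.9, 24.6 and 20.6 CPM (log2 fold change 0.63, SE 0.09, edgeR adjusted p = 0.042). Asns, asparagine synthetase, measured 90.8, 97.6 and 108.1 CPM against 140.5, 147.5 and 138.1 CPM (log2 fold change 0.52, SE 0.07, edgeR adjusted p = 0.031). For each of these 3 genes the lowest DMSO library lay above the highest parental one.

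Asns was the only member called of 30 tested ATF4 targets and amino acid response genes, a list whose median of 0.24 was the highest apart from those of histones and untailed RNAs. Of its members 24 lay above 0, and in 13 the DMSO libraries were wholly above the parental ones, against 10.6% of all tested genes. The members that did not pass included the cystine transporter Slc7a11 (0.88, edgeR adjusted p = 0.084), the serine synthesis enzyme Psat1 (0.34, edgeR adjusted p = 0.10), the proline synthesis enzyme Pycr1 (0.82) and the pseudokinase Trib3 (0.57). Psat1 stood at 406, 431 and 475 CPM in parental and 546, 591 and 520 CPM in DMSO cells. Atf4 itself was at 170, 181 and 221 against 205, 217 and 216 CPM (log2 fold change 0.16, edgeR adjusted p = 0.46), and its groups overlapped. Without DMSO replicate 3 the median of the list was 0.21.

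ATF4 binds with C/EBP partners at composite sites whose core is written here as TGATGNAA. The 120 bases before the start of Asns and Pck2 are shown because each window holds one match, printed in capitals. They are RefSeq promoters of build GRCm38.p6, at chr6:7693210-7693329 on the minus strand and chr14:55540146-55540265 on the plus strand.
Asns: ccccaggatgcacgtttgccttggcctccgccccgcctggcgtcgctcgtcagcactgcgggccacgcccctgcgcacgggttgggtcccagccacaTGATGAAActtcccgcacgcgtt
Pck2: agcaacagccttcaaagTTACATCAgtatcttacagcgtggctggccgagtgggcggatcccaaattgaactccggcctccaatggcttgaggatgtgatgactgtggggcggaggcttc
The match in Asns begins 23 bases before the RefSeq start. That in Pck2 lies on the opposite strand and begins 103 bases before the RefSeq start. In GENCODE the gene of Asns reaches to chr6:7693254, so the window overlaps that gene and the match lies inside it. Over 300 bases from 250 before the start to 50 after it, searched on both strands, the motif was in 1304 of 32851 promoters (3.97%). The same window of Gpt2 held no match. These promoters were looked at because the genes had risen, and a match is a description of letters, not of binding.

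The other higher genes had smaller changes. H1f0, a linker histone whose mRNA is polyadenylated, measured 243, 239 and 264 CPM in parental and 321, 355 and 308 CPM in DMSO cells (log2 fold change 0.40, SE 0.07, edgeR adjusted p = 0.049), and its highest value was in DMSO replicate 2. Nadk2, the mitochondrial NAD kinase, rose by 0.38, Knl1, a kinetochore scaffold, by 0.36, Tut4, a terminal uridylyltransferase, by 0.35 and the kinase gene Jak2 by 0.33. With the tested genes cut by exon length into 4 bins of like size, the 15 higher genes numbered 1, 2, 3 and 9 from the shortest bin to the longest, and the 72 lower genes 22, 20, 16 and 14. The median log2 fold change of all genes ran from -0.01 in the shortest bin to 0.01 in the longest; the part of gene length in these calls was not tested.

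**Figure D5:**
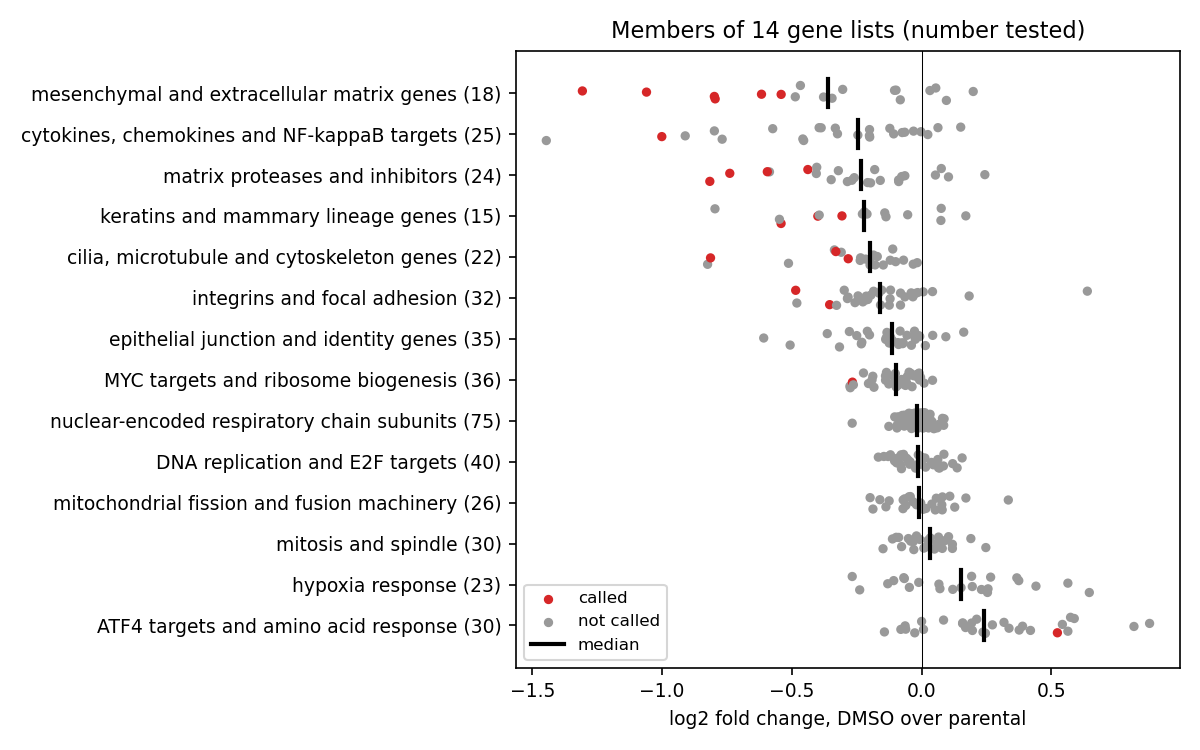
Log2 fold change of DMSO over parental cells (horizontal axis) for the tested members of 14 gene lists, with the number tested in brackets. Red points passed the test, grey points did not and black bars are medians. Mesenchymal and matrix genes have the lowest median (-0.36) and ATF4 targets the highest (0.24), while respiratory chain, replication and fission genes lie near 0.

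Genes that the series edited or drugged did not pass the test between the control groups. Dnm1l, which encodes the fission GTPase Drp1, measured 210, 207 and 215 CPM in parental and 224, 221 and 223 CPM in DMSO cells. The DMSO libraries lay above the parental ones by a log2 fold change of 0.08 (SE 0.04, edgeR adjusted p = 0.39). Fis1, an outer membrane protein of mitochondria, stood at 42.6, 43.4 and 50.1 CPM against 41.1, 46.5 and 35.98 CPM, and Mff, a receptor of Drp1, at 77.0, 80.6 and 87.1 against 82.2, 92.9 and 83.6 CPM. Both overlapped between the groups. Dhodh, the pyrimidine synthesis enzyme inhibited by the active form of leflunomide, stood at 18.7, 17.7 and 16.02 against 16.2, 17.7 and 18.6 CPM (log2 fold change 0.00, SE 0.09). The fusion genes Mfn1, Mfn2 and Opa1 had log2 fold changes of 0.06, -0.07 and 0.08. None of 26 tested fission and fusion genes was called, and their median was -0.01.

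In lists of growth and energy genes few passed. None was called among 75 nuclear-encoded respiratory chain genes (median -0.02), 13 mitochondrial mRNAs (-0.02), 79 ribosomal protein genes (-0.04), 40 replication genes (-0.01) or 30 mitosis genes (0.03). For 7 of the 30 mitosis genes the DMSO libraries lay wholly above the parental ones, against 10.6% of all tested genes. For 3 they lay wholly below, against 11.1%. Of 36 MYC targets and ribosome biogenesis genes 34 lay below 0, with a median of -0.10, and Noc4l alone fell (log2 fold change -0.27, edgeR adjusted p = 0.049). In 17 of the 36 the DMSO libraries lay wholly below the parental ones, against 11.1% of all tested genes. The hypoxia list stood at a median of 0.15 with none of 23 called, and 8 had DMSO libraries wholly above the parental ones, against 10.6% of all tested genes. Bnip3, a mitophagy receptor, was at 15.2, 14.8 and 22.3 CPM in parental and 26.5, 25.6 and 29.8 CPM in DMSO cells (log2 fold change 0.65, edgeR adjusted p = 0.14). Of 14 circadian clock genes the repressor Nr1d1 alone fell (log2 fold change -0.67, edgeR adjusted p = 0.049). Replication-dependent histones had a median of 2.54 over 38 tested genes with none called, and 0.73 without DMSO replicate 3.

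A set of 28 genes seen earlier in these data to differ in the knockout clones was read between the control groups. None of the 28 was called in the edgeR fit, and the median was -0.12. DESeq2 called some of them, such as Mmp9 (DESeq2 adjusted p = 6.6e-07) and Nox4 (DESeq2 adjusted p = 0.0059), while most did not pass there either. In 8 of them the DMSO libraries lay wholly below the parental ones, against 11.1% of all tested genes. Cldn3, a tight junction claudin, stood at 14.01, 16.8 and 15.98 CPM in parental and 13.2, 13.7 and 12.9 CPM in DMSO cells, while scaled over all 27 libraries its mean was 0.012 CPM in the clone where it was highest and 16.1 CPM in parental cells. Both groups of unedited cells thus expressed Cldn3. Krt14, a basal keratin, ranged wider in unedited cells, at 64.5, 65.9 and 51.8 CPM in parental and 35.98, 47.1 and 21.5 CPM in DMSO libraries (log2 fold change -0.80, edgeR adjusted p = 0.19).

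Whether a difference was shared by the rest of each arm was read over all 27 libraries, as a description. The 6 libraries of the drug arm lay wholly above or wholly below the 21 of the knockout arm for 107 genes (0.847% of those tested), 37 above (0.293%) and 70 below (0.554%). Of the 87 called genes 3 lay above (Gpt2, Nadk2 and Zfyve16) and 11 below, among them Prl2c2, Anxa8, Lama3, Col7a1, Plin2 and Krt8. Anxa8, an annexin, averaged 31.6 CPM in parental, 14.4 CPM in DMSO and 15.5 CPM in leflunomide libraries, and the clone means ran from 24.6 to 86.0 CPM. Lama3 averaged 297.7, 170.4 and 155.8 CPM, with clone means from 268.1 to 479.7 CPM. Anxa8 and Lama3 are shown because they met this rule, so the separation of their arms was fixed by the choice. All 87 called genes already had parental and DMSO libraries apart, which the rule also requires, against 21.7% of all tested genes. The number of called genes that met it can therefore not be read against the 0.847% of all tested genes.

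Other called genes did not divide that way. Tnc averaged 10.01 CPM in parental, 4.02 CPM in DMSO and 13 CPM in leflunomide libraries, Clu 85.7, 42.4 and 81.9 CPM, and Fn1 883.6, 504.8 and 907.8 CPM. Moxd1, a monooxygenase-like gene, averaged 32.9, 17.4 and 32.0 CPM. In these 4 genes the DMSO group was low and the leflunomide group lay near the parental level or above it. Gsta1 averaged 16.4 CPM in parental, 4.68 CPM in DMSO and 3.62 CPM in leflunomide libraries, so here both groups of the drug arm were low, while clone means ran from 6.54 to 53.6 CPM. The leflunomide values are set beside those of DMSO and parental cells with no test, since the groups share an arm or a control.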

How the data were processed

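The authors deposited a table of RSEM expected counts per gene for 27 libraries; per the submitters' processing notes, reads were trimmed with Trimmomatic 0.35 and the build was GRCm38 (mm10), while the aligner is not given in the sources used here. Of the values 91.5% were whole, 3 of the largest values were written with 3 digits, and all were rounded. Per the labels' protocols, RNA was poly(A) selected (KAPA RNA HyperPrep). Columns carry serial numbers, so replicates are numbered by their order within a group, and 0 columns were left unmapped.

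The 6 libraries were fitted in R 4.3.3 with edgeR 4.0.16 (filterByExpr, TMM, quasi-likelihood F test, two-sided, Benjamini-Hochberg over all tested genes, threshold 0.05) with no covariate. Levels set beside leflunomide or clones use TMM over all 27 libraries. Distances use log2 of CPM plus 0.5. Exon lengths and positions are those of GENCODE on GRCm38, and promoters those of RefSeq.

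The members, the 41 gene lists and the rule for named genes were chosen with earlier results of these data known. By that rule the text could name the 15 largest called changes in each direction (5 CPM or more on average in the higher group), up to 4 called members of each list, the edited genes and Dhodh, the genes earlier seen to differ in clones, and the most abundant and most variable genes. The text names part of them, and some genes the rule takes are not reported here; other list members, Col4a1 and Csf1r for example, were named after their values were seen, as were the promoters. The procedure was tested on simulated data. Alternatives were DESeq2 1.42.0, its size factors, other count filters, 370 ribosomal or untailed RNA genes left out, limma 3.58.1 voom with quality weights, all 27 libraries in 1 fit, a test against 2-fold (glmTreat) and leaving out each library. Leaving DMSO replicate 3 out of the spread and of the leflunomide comparison was added after seeing the data. Tables and plots were made with Python 3.11.15 (pandas 2.3.3, numpy 2.4.6, and matplotlib 3.10.9 for the plots).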

Additional observations from a re-analysis of the deposited data

How the results depend on the processing

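Of 87 genes called between DMSO and parental cells, 17 at least 2-fold apart, other settings called 315 and 36 (DESeq2), 500 and 197 (no low-count filter), 297 and 27 (limma voom with quality weights) and 554 and 182 (all 27 libraries in 1 fit). All 87 were called without the filter and with voom, 85 with DESeq2 and 77 in the fit of all 27. Of the genes called without the filter, 70 were not among the 12627 tested with it, and 58 of these 70 were highest in DMSO replicate 3. A test against a log2 fold change of 1 called 0 genes, with 128 at an unadjusted p under 0.05; the edgeR test against 0 had 2011. DESeq2 size factors gave 75 and 14, a filter of 1 CPM gave 86 and 15, and leaving out ribosomal RNA gave 75 and 15. Leaving out each library in turn gave 0 to 89 genes, 0 to 22 at least 2-fold apart, and 0 to 35 called list members. In the fits with 0 calls, 1660 genes (without parental replicate 1) and 1604 (without DMSO replicate 1) had an unadjusted p under 0.05. Leflunomide against DMSO called 166 genes without DMSO replicate 3. Of 1223 values of 124 named genes under the alternatives 945 kept their direction and side of the threshold, 260 lost the call, 247 of them when a library was left out, 18 gained it and 0 changed sign. Of 279 list medians 24 moved by more than the spread. The cause of these changes was not tested. No paired analysis was possible because the columns carry serial numbers rather than the replicate numbers of the labels, and the groups come from different arms. With 3 libraries a group and 18492020 to 24753800 counts each, the number of libraries limits what small differences can show.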
